A study of Mus musculus with 12 samples.

Results

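NRF2 is the transcription factor that cells use to turn on their defence against oxidants and reactive chemicals, and the 10 genes described here are its core pathway: Nfe2l2, which encodes NRF2, Keap1, which encodes its inhibitor, and 8 well-known targets, Nqo1, Hmox1, Gclc, Gclm, Txnrd1, Srxn1, Slc7a11 and Gsr. They were taken by symbol, by their place in the pathway, from the 24421 genes of the count table, and all 10 were among the 15220 genes with enough counts to be tested. The RNA was sequenced from mouse embryonic fibroblasts (MEFs), a cultured connective tissue cell, to ask how the transcription factors TFEB and TFE3 shape the response to DNA damage. Each of the 4 groups had 3 libraries: Null MEFs without etoposide, TFEB/TFE3 DKO MEFs without etoposide, and each genotype after 8 hours in 100 µM etoposide, a drug that traps topoisomerase II on broken DNA. Null is the labels' name for the control genotype, which the methods call WT, and DKO MEFs had both factors' genes disrupted by CRISPR-Cas9. The labels describe the control cells as untreated and the methods as given DMSO, so a solvent effect cannot be told apart from that of etoposide if the labels hold. Each genotype was 1 line, so a difference between genotypes cannot be told apart from a difference between those lines. Nothing states that replicates were grown as separate cultures, so every p-value measures the spread between these libraries only.

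In an unstressed cell the KEAP1 protein binds NRF2 and passes it to a ubiquitin ligase built on CUL3, and NRF2 is degraded as fast as it is made. Oxidants and electrophiles modify cysteines of KEAP1, NRF2 escapes, pairs with a small MAF protein, and binds antioxidant response elements near genes for quinone reduction, haem breakdown, glutathione and the thioredoxin system, in fibroblasts as in most other cells. Because this switch works on the protein, the Nfe2l2 transcript is not a measure of NRF2 activity, and some targets are also driven by other factors, Slc7a11 by ATF4 and Hmox1 by several.

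The libraries were deep. Counts on genes were 83970210, 67654759 and 66956083 in the control Null libraries and 75454495, 76125320 and 63286195 after etoposide. In DKO MEFs they were 74826945, 104120871 and 66749645 in control libraries and 45577023, 68441372 and 94388705 after etoposide. The smallest count of any of the 10 genes was 1009, for Nqo1 in 1 control DKO library, so none of them was limited by low counts. Levels are given as CPM, counts scaled to library size with TMM factors, in the order of replicates 1, 2 and 3. Differences are log2 fold changes with their standard error (SE), and a gene is called changed at an adjusted p under 0.05. An exact two-sided permutation test of 3 libraries against 3 cannot go below 0.1, so each p comes from a model of all genes in all 12 libraries. Groups without overlap of replicates were common. With etoposide 80.2% of tested genes had none in Null MEFs and 76.1% in DKO MEFs (8 and 9 of the 10 genes). Between genotypes 70.5% had none without etoposide and 74.7% after it (8 of the 10 genes each).

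The targeted genes were looked at first. Tfeb stood at 38.9, 39.2 and 42.1 CPM in control Null libraries and at 4.60, 6.09 and 4.68 in control DKO libraries, a log2 fold change of -2.94 (SE 0.09, adjusted p 1.05e-14 by edgeR's quasi-likelihood test and Benjamini-Hochberg adjustment). After etoposide it stood at 11.4, 10.2 and 10.4 CPM in Null libraries and at 1.92, 1.61 and 2.20 in DKO libraries. Every DKO library was below every Null library of its treatment. Tfe3 RNA was still present in the DKO MEFs, at 94.1, 93.1 and 91.0 CPM against 115, 109.9 and 114 in control Null libraries, and at 70.7, 71.2 and 63.4 against 68.5, 69.6 and 68.1 after etoposide. An edited gene can keep its RNA, so Tfe3 does not check the genotype by its level, while Tfeb matched the labels in each library.

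Markers checked the cell type. All 12 fibroblast markers looked for were above 3 counts in some library, and Vim was the most abundant, with a mean of 1880 CPM. Their summed level was 7798, 7754 and 7940 CPM in control Null libraries and 4156, 4021 and 4013 after etoposide. In DKO MEFs it was 12740, 13470 and 12860 in control libraries and 5554, 5620 and 5265 after etoposide. The sum was thus lower after etoposide in each genotype, and individual markers differed between the lines: Thy1 was near 0 in DKO MEFs (0.0365 CPM in control libraries, against 4.21 in Null) and Pdgfra higher (197 against 20.9). Of 8 macrophage and leukocyte markers, Tyrobp was at or below 3 counts in every library and Cd14 was the most abundant, and the list summed to 18.1, 19.5 and 16.4 CPM in control Null libraries, 78.9, 78.5 and 78.5 after etoposide, 9.31, 7.88 and 7.55 in control DKO libraries and 14.9, 12.4 and 15.0 after etoposide. Endothelial markers, led by Tek, summed to at most 3.16 CPM, and epithelial markers, led by Krt19, to between 15.7 and 37.7. These sums move with the groups, and their part in the results was not tested. In RNA from whole cultures, fewer cells of a kind and less RNA per cell cannot be told apart.

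Scaling matters for small differences in these data. With library size alone in place of TMM, the median log2 fold change of all tested genes moves by 0.17 for etoposide in Null MEFs, by 0.27 for etoposide in DKO MEFs, by -0.12 between genotypes without etoposide and by 0.10 for the interaction, which is the response in DKO MEFs minus that in Null MEFs. The log2 fold change of each gene named here moves by about as much, which is over 1.5 times for many small ones. Differences are therefore relative to the bulk of genes, and where this choice turns the direction of a gene's log2 fold change, the other value is given beside it.

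Nfe2l2 (chromosome 2, 75675513 to 75704641 in GENCODE M21 on GRCm38) encodes NRF2 itself. Its level was 195, 184 and 179 CPM in control Null libraries and 128, 131 and 129 after etoposide, and in DKO MEFs 180.1, 179 and 199.6 in control libraries and 128, 124 and 129 after etoposide. All 6 etoposide libraries were below all 6 control libraries, and the genotypes overlapped in both treatments. Nfe2l2 fell with etoposide, at a log2 fold change of -0.52 in Null MEFs (SE 0.04, adjusted p 3.84e-09, same edgeR test) and of -0.55 in DKO MEFs (SE 0.04, adjusted p 3.05e-09, same edgeR test). The interaction was -0.03 (SE 0.06, adjusted p 0.759, same edgeR test), and it was 0.08 with library size alone, so neither its sign nor a difference in response was resolved. Between genotypes the log2 fold change was -0.00 without etoposide and -0.03 after it, each with an SE of 0.04. With library size alone the difference without etoposide was -0.12 and past the threshold.

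Keap1 (chromosome 9, 21229730 to 21239361) encodes the sensor that holds NRF2 down. Its 510 exon bases that overlap Gm16754 lie on the opposite strand of a gene that is not in the table, and the strand setting of the counting is not stated. Control Null libraries had 73.2, 75.4 and 80.7 CPM and etoposide Null libraries 80.5, 78.5 and 85.9, which overlap. Control DKO libraries had 90.6, 90.5 and 85.1 CPM and etoposide DKO libraries 98.7, 98.4 and 105, which do not overlap. Each DKO library was above each Null library of the same treatment. The genotype difference was 0.22 without etoposide (SE 0.05, adjusted p 0.000463, same edgeR test), which was 0.10 and short of the threshold with library size alone, and 0.30 after etoposide (SE 0.05, adjusted p 1.07e-05, same edgeR test). Keap1 rose with etoposide in DKO MEFs by 0.18 (SE 0.05, adjusted p 0.00172, same edgeR test). The value in Null MEFs was 0.09 (SE 0.05, adjusted p 0.0681, same edgeR test), and 6 alternatives put it past the threshold: DESeq2 or its size factors (0.14 each), library size alone (0.26), the stricter filter (0.18), and leaving out Null control replicate 3 or Null etoposide replicate 2 (0.12 each). Leaving out 1 library moved it between 0.05 and 0.12. The interaction of 0.09 (SE 0.06, adjusted p 0.273, same edgeR test) was short of the threshold, and with library size alone it was 0.19 and past it. Leaving out 1 library moved the interaction between 0.05 and 0.13, and other alternatives took it down to 0.02.

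**Figure D1:**
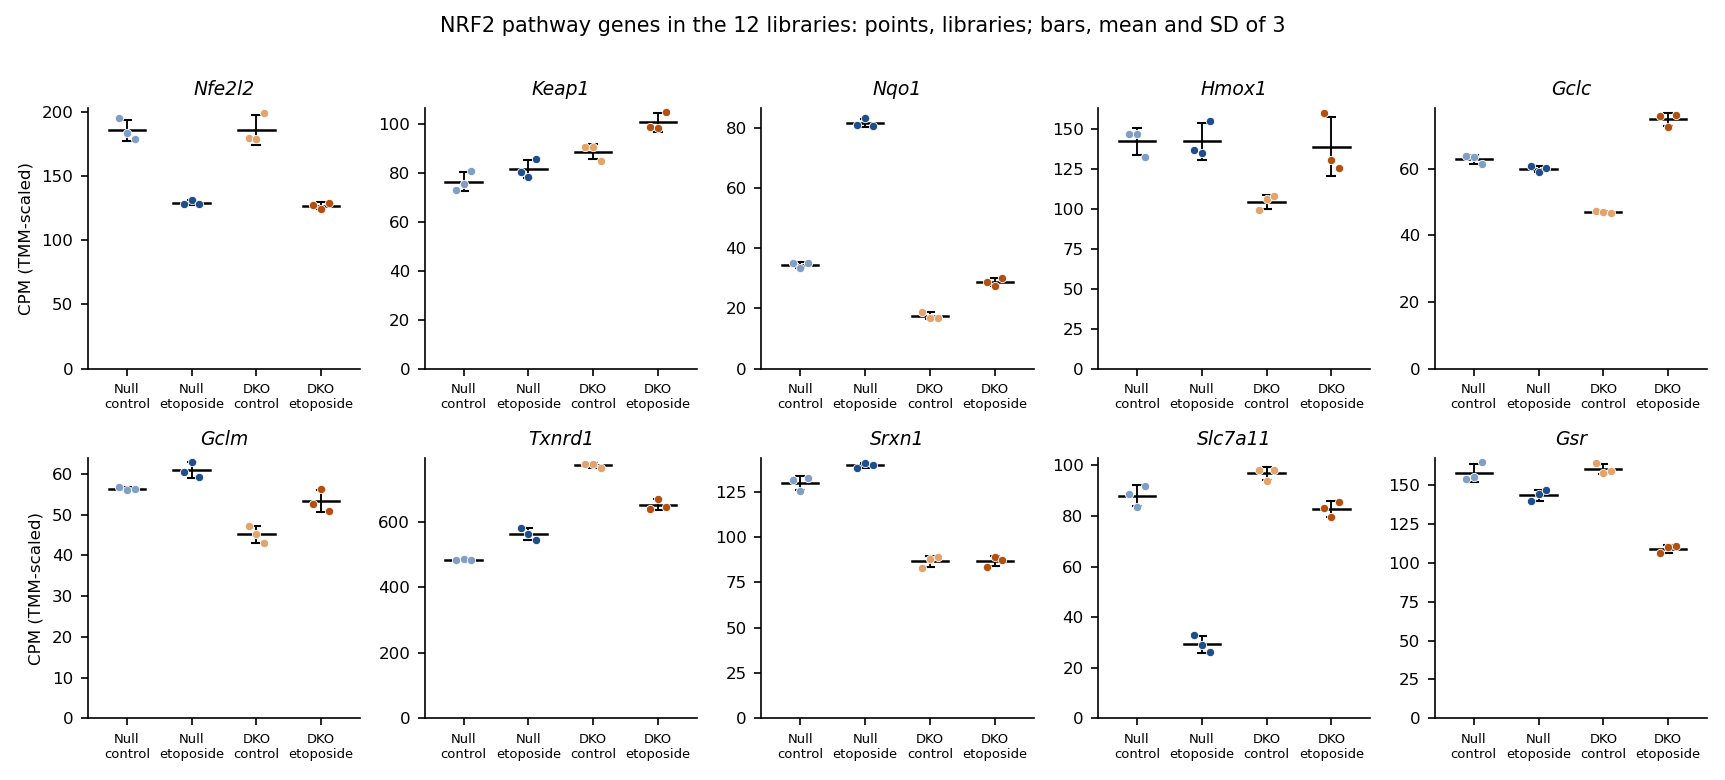
Level of each of the 10 NRF2 pathway genes in the 12 libraries, in CPM after TMM scaling; points are libraries and bars the mean and SD of 3. Slc7a11 stands at 26.2 to 32.9 in etoposide Null libraries and at 79.7 to 98.3 in the other groups, and Nqo1 at 80.7 to 83.4 in etoposide Null libraries and at 35.3 or less elsewhere.

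Nqo1 (chromosome 8, 107388225 to 107403206) encodes a quinone reductase and is a standard readout of NRF2. It stood at 34.9, 33.4 and 35.3 CPM in control Null libraries and 80.9, 83.4 and 80.7 after etoposide. The DKO libraries had 18.9, 16.9 and 16.9 CPM as controls and 28.7, 27.5 and 30.1 after etoposide. With TMM scaling each treated DKO library was below each control Null library, a comparison that was not tested. It depends on the scaling, as TMM factors were 1.07 to 1.08 in treated DKO and 0.962 to 0.969 in control Null libraries. Nqo1 rose with etoposide by 1.24 in Null MEFs (SE 0.05, adjusted p 8.44e-14, same edgeR test) and by 0.71 in DKO MEFs (SE 0.05, adjusted p 1.13e-09, same edgeR test). The interaction was -0.53 (SE 0.07, adjusted p 5.64e-06, same edgeR test). DKO MEFs were lower at a log2 fold change of -0.98 without etoposide (SE 0.05, adjusted p 1.54e-11, same edgeR test) and of -1.50 after it (SE 0.05, adjusted p 1.39e-14, same edgeR test). Among all tested genes the rise in Null MEFs was not extreme: 79.7% had a lower log2 fold change.

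Hmox1 (chromosome 8, 75093621 to 75100589) encodes haem oxygenase 1, which breaks haem down to biliverdin, iron and carbon monoxide. Null libraries had 147, 147 and 133 CPM without etoposide and 136, 135 and 155 with it. DKO libraries had 99.4, 106 and 108 CPM without etoposide and 160.1, 131 and 126 with it. The Null groups overlapped, the control DKO libraries were below all other libraries, and treated DKO libraries were spread across and beyond the range of the Null ones. Hmox1 rose in DKO MEFs by 0.41 (SE 0.08, adjusted p 0.00011, same edgeR test), with a value in Null MEFs of -0.00 (SE 0.07, adjusted p 0.993, same edgeR test) that was 0.17 with library size alone. The interaction of 0.41 (SE 0.11, adjusted p 0.00332, same edgeR test) put the responses apart. DKO MEFs were lower without etoposide, at a log2 fold change of -0.45 (SE 0.08, adjusted p 4.61e-05, same edgeR test). After etoposide the difference was -0.04 (SE 0.07, adjusted p 0.67, same edgeR test), and it depended on single libraries. Without replicate 1 of the treated DKO group it was -0.17 and past the threshold. Without replicate 3 of either treated group it turned sign, to at most 0.03.

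The next 4 genes serve glutathione, the small thiol that buffers oxidants. Slc7a11 (chromosome 3, 49892526 to 50443614) encodes the exchanger that brings in cystine, the source of its cysteine. Gclc (chromosome 9, 77754535 to 77794485) and Gclm (chromosome 3, 122245557 to 122270732) encode the catalytic and the modifier subunit of the ligase that makes the first step of its synthesis. Gsr (chromosome 8, 33652523 to 33698163) encodes the reductase that recycles the oxidized form. RefSeq's promoter table for GRCm38.p6 held 7 of the 10 genes, namely Nfe2l2, Keap1, Nqo1, Gclm, Txnrd1, Srxn1 and Slc7a11, in 9 windows since Txnrd1 has 3 starts, and Hmox1, Gclc and Gsr had no entry. The 250 bases before the start are shown for Slc7a11 (chr3:50443614-50443863, minus strand) and Gclm (chr3:122245307-122245556, plus strand), with the motifs in capitals.
Slc7a11: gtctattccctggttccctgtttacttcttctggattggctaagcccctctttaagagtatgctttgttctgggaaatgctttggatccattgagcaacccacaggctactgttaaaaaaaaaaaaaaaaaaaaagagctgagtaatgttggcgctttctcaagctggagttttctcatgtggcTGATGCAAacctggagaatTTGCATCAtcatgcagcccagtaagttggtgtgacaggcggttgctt
Gclm: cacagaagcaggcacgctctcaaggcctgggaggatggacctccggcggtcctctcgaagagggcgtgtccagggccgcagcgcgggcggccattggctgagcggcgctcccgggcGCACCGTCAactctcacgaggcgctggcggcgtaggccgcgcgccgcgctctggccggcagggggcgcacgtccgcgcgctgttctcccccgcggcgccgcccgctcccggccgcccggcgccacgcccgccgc
The capitals in Slc7a11 are 2 matches to TGATGNAA, the core of the amino acid response element that ATF4 binds, at 66 to 59 bases before the start and, read on the other strand, 47 to 40 bases before it. Those letters, searched on both strands, occur in 3.45% of the table's 32851 windows of this length. The capitals in Gclm are TGACNNNGC, the core of the antioxidant response element, on the other strand 134 to 126 bases before the start, and 10.2% of all windows hold it. Nfe2l2 holds the same core 240 to 232 bases before its start, and in all 3 of the 9 windows do, those of Gclm, Nfe2l2 and 1 start of Txnrd1. The windows of Nqo1, Keap1 and the other 2 starts of Txnrd1 hold none of the motifs searched. Bases farther from the start were not searched, so an absence does not show that a gene lacks the element. The E-box CACGTG was in 0 of the 9 windows and in 6.02% of all windows. A match describes letters and does not show binding, and whether a motif goes with a level or a response was not tested.

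In Null MEFs Slc7a11 had the largest response to etoposide of the 10 genes, and its interaction was also the largest. Control Null libraries had 88.5, 83.6 and 91.9 CPM, and etoposide Null libraries 32.9, 28.9 and 26.2. Control DKO libraries had 98.3, 94.0 and 98.3 CPM, and etoposide DKO libraries 83.0, 79.7 and 85.7. The treated Null libraries were thus far below the other 9, which lay close together. The log2 fold change with etoposide in Null MEFs was -1.58 (SE 0.06, adjusted p 1.2e-13, same edgeR test), rank 375 from the lowest of all 15220. In DKO MEFs it was -0.23 (SE 0.06, adjusted p 0.00229, same edgeR test), and with library size alone it was 0.05, so its direction there depends on the scaling. The interaction of 1.36 (SE 0.08, adjusted p 4.98e-10, same edgeR test) was between 1.29 and 1.46 under each of the 20 alternatives run. DKO MEFs exceeded Null MEFs after etoposide by 1.49 (SE 0.06, adjusted p 4.7e-13, same edgeR test), rank 374 from the highest. Without etoposide they exceeded them by 0.14 (SE 0.06, adjusted p 0.047, same edgeR test), a call lost when any of 5 of the 6 libraries was left out in turn (0.10 to 0.16; all but Null control replicate 3) and with limma-trend, no filter, the stricter filter, library size alone or the legacy fit.

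Gclc responded in DKO MEFs. Its level was 63.8, 63.4 and 61.3 CPM in control Null libraries and 60.9, 59.0 and 60.1 in treated ones. Control DKO libraries had 47.2, 47.1 and 46.8 CPM and treated DKO libraries 75.8, 72.6 and 76.1. The DKO cells thus went from the lowest to the highest of the 4 groups with no overlap between any of them. Gclc rose in DKO MEFs by 0.67 (SE 0.04, adjusted p 1.38e-11, same edgeR test). In Null MEFs the value was -0.07 (SE 0.04, adjusted p 0.0904, same edgeR test), with 0.02 under the stricter filter. It was past the threshold in 3 alternatives, at 0.10 with library size alone, and below 0 with no filter (-0.09) or without Null control replicate 3 (-0.10). The interaction was 0.74 (SE 0.05, adjusted p 1.39e-09, same edgeR test). Between genotypes the log2 fold change was -0.42 without etoposide (SE 0.04, adjusted p 1.09e-08, same edgeR test) and 0.32 after it (SE 0.03, adjusted p 2.36e-07, same edgeR test).

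Gclm did not share the size of that response. Exons of Gclm overlap Gm17494 on the opposite strand and the pseudogene Gm6061 on the same strand, by at most 296 bases, and neither is in the table. Gclm had 56.7, 56.0 and 56.4 CPM in control Null libraries and 60.5, 63.0 and 59.3 in treated ones, then 47.2, 45.2 and 43.0 in control DKO libraries and 52.7, 56.4 and 51.0 in treated ones. Within each genotype the treated libraries were all higher, by margins of a few CPM. The rise was 0.24 in DKO MEFs (SE 0.05, adjusted p 0.000148, same edgeR test) and 0.11 in Null MEFs (SE 0.04, adjusted p 0.028, same edgeR test). The call in Null MEFs was lost without any 1 of 5 of the 6 libraries (0.08 to 0.11; all but Null etoposide replicate 3), and with no filter. The interaction was 0.13 (SE 0.06, adjusted p 0.106, same edgeR test), or 0.23 and past the threshold with library size alone. Leaving out 1 library moved this interaction between 0.07 and 0.15, and other alternatives took it down to 0.06. DKO MEFs were lower at a log2 fold change of -0.32 without etoposide (SE 0.05, adjusted p 6.77e-06, same edgeR test) and of -0.19 after it (SE 0.04, adjusted p 0.00088, same edgeR test).

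Gsr started level in the genotypes. Control libraries had 154, 155 and 165 CPM in Null MEFs and 164, 158 and 159 in DKO MEFs, which overlap, at a log2 fold change of 0.02 (SE 0.04, adjusted p 0.635, same edgeR test) that was -0.10 and past the threshold with library size alone. After etoposide Null libraries had 139, 144 and 147 CPM and DKO libraries 106, 110.3 and 111. The treated DKO libraries were the lowest of all. Gsr fell in DKO MEFs at a log2 fold change of -0.55 (SE 0.04, adjusted p 2.28e-10, same edgeR test), and DKO MEFs were below Null MEFs after etoposide at -0.39 (SE 0.04, adjusted p 1.98e-08, same edgeR test). In Null MEFs the change was -0.14 (SE 0.04, adjusted p 0.00182, same edgeR test), which was 0.03 with library size alone and -0.05, short of the threshold, with the stricter filter. The interaction was -0.42 (SE 0.05, adjusted p 1.95e-06, same edgeR test).

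The last pair, Txnrd1 (chromosome 10, 82833951 to 82897712) and Srxn1 (chromosome 2, 152105516 to 152111376), repair oxidized proteins. Thioredoxin reductase 1, from Txnrd1, feeds electrons to thioredoxin, and sulfiredoxin, from Srxn1, restores overoxidized peroxiredoxins. The Srxn1 window holds TGANTCAGC and 1 Txnrd1 window the TGACNNNGC core. Both windows are shown, Srxn1 at chr2:152105274-152105523 and Txnrd1 at its middle start, chr10:82858956-82859205, each on the plus strand.
Srxn1: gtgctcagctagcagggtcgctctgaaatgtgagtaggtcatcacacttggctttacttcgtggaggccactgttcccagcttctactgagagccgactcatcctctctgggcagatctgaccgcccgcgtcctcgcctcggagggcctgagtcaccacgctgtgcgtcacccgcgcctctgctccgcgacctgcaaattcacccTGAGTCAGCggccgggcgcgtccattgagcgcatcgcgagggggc
Txnrd1: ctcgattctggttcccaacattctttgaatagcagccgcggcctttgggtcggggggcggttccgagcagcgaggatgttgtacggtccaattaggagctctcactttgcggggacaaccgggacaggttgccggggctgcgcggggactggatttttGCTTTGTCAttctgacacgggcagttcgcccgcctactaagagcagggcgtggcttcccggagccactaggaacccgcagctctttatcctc
The capitals in Srxn1 are TGANTCAGC, a form of the element bound by MAF partners, 45 to 37 bases before the start, and 1.02% of all windows hold it on either strand. The shorter AP-1 letters TGANTCA lie within it, and once more at 102 to 96 bases, and occur in 6.75% of all windows. The capitals in Txnrd1 are the TGACNNNGC core on the other strand, 92 to 84 bases before that start.

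Txnrd1 had 484, 487 and 482 CPM in control Null libraries and 581, 562 and 545 in treated ones. Control DKO libraries had 777, 778 and 763 CPM and treated DKO libraries 638, 671 and 646. The 4 groups were apart, with the DKO libraries above the Null libraries in each treatment. Txnrd1 rose with etoposide in Null MEFs by 0.21 (SE 0.03, adjusted p 7.76e-06, same edgeR test). The change in DKO MEFs was -0.25 (SE 0.03, adjusted p 1.99e-06, same edgeR test), and with library size alone it was 0.03, so the fall is one relative to other genes. The interaction was -0.46 (SE 0.04, adjusted p 1.28e-07, same edgeR test). DKO MEFs exceeded Null MEFs by 0.67 without etoposide (SE 0.03, adjusted p 3.31e-12, same edgeR test) and by 0.21 after it (SE 0.03, adjusted p 9.63e-06, same edgeR test).

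Srxn1 was lower in DKO than in Null MEFs in both treatments. Null libraries had 131, 125 and 133 CPM without etoposide and 138, 141 and 139.6 with it. DKO libraries had 83.2, 87.9 and 89.1 CPM without etoposide and 83.5, 89.1 and 87.5 with it. All 6 DKO libraries were below all 6 Null libraries, and the DKO groups overlapped. The genotype difference was -0.58 without etoposide (SE 0.04, adjusted p 2.41e-10, same edgeR test) and -0.69 after it (SE 0.04, adjusted p 1.92e-11, same edgeR test). The change with etoposide was 0.10 in Null MEFs (SE 0.04, adjusted p 0.0157, same edgeR test), or 0.27 with library size alone, a call lost with no filter and without Null control replicate 2 (0.07) or Null etoposide replicate 2 (0.09). In DKO MEFs it was 0.00 (SE 0.04, adjusted p 0.993, same edgeR test), and 0.27 and past the threshold with library size alone. The interaction of -0.10 (SE 0.05, adjusted p 0.109, same edgeR test) was 0.00 with library size alone. It was past the threshold with DESeq2 or its size factors (-0.17 each), the stricter filter (-0.15), and without DKO control replicate 1 (-0.15).

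**Figure D2:**
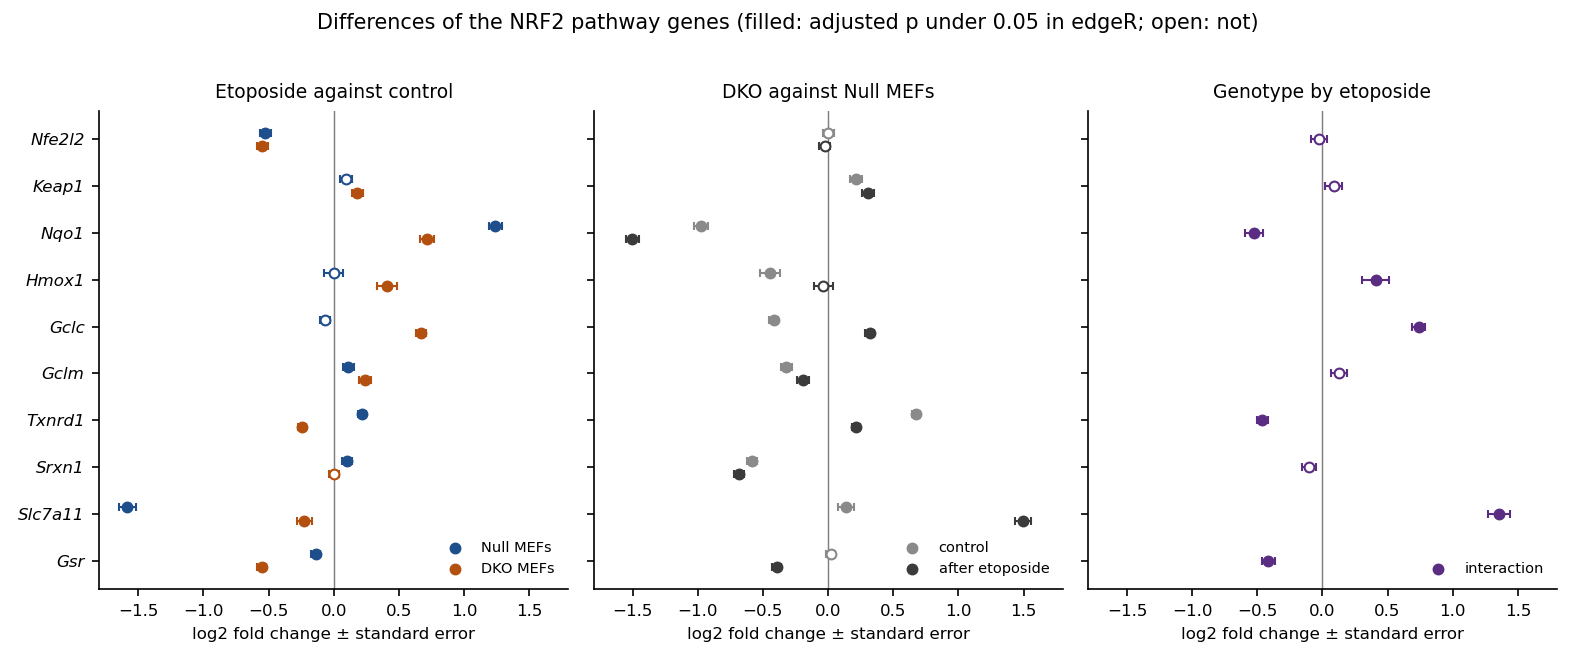
Log2 fold changes of the 10 NRF2 pathway genes with their SE, for etoposide in each genotype, for DKO against Null MEFs in each treatment, and for the interaction (3 libraries a group; filled points had an adjusted p under 0.05 in edgeR). Slc7a11 is at -1.58 in Null and -0.23 in DKO MEFs (0.05 with library size alone), and Nqo1 and Srxn1 are below 0 in DKO against Null MEFs in both treatments.

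Taken as a list, the 10 genes moved in both directions, and about as often as any gene here. With etoposide in Null MEFs 7 of the 10 were called, where 79.4% of all tested genes were. Of these, 4 were higher (42.3% of all tested genes; 2 with no filter or without Null control replicate 2) and 3 lower (37.2%). With library size alone 6 were higher and 2 lower. The median log2 fold change was 0.05 beside 0.07 for all tested genes, or 0.21 beside 0.23 with library size alone. With etoposide in DKO MEFs 9 were called (75.1% of all), 5 higher (43.7%) and 4 lower (31.5%; 2 with library size alone), at a median of 0.09 beside 0.14. Both comparisons stand on their own control libraries, but those between genotypes use the same 12 libraries again. Without etoposide 8 of the 10 differed between DKO and Null MEFs (66.7% of all), 3 higher (33.3%; 1 with library size alone) and 5 lower (33.4%), at a median of -0.16 beside -0.02. After etoposide 8 differed (74% of all), 4 higher (37.5%) and 4 lower (36.6%), at a median of -0.03 beside -0.00. The interaction was called for 6 (54% of all), 3 above 0 (29.6%; 5 with library size alone) and 3 below (24.4%), at a median of 0.03 beside 0.05. With DESeq2's size factors those medians turned to -0.03 and -0.02, and the split of all called genes from 4507 above and 3719 below 0 to 3797 and 4192. The same factors turned the split between genotypes after etoposide from 5701 higher and 5569 lower to 5072 and 6096. In a data set where most genes are called, these counts are near the background and say nothing particular about the pathway as a whole. What the genes show is their disagreement: Nqo1 rose while Slc7a11 fell in the same treated Null libraries, and Gclc rose while Gsr fell in the same treated DKO libraries, under each of the 15 alternatives.

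Levels of different genes can be compared only per length of exon, in CPM per kilobase. In control Null MEFs the order was Hmox1 (81.2), Txnrd1 (68.4), Gsr (57.3), Nfe2l2 (49.0), Srxn1 (46.0), Nqo1 (22.2), Gclc (16.7), Keap1 (16.3), Gclm (8.96) and Slc7a11 (6.32), and only Gclc and Keap1 overlapped as neighbours. In treated Null MEFs Hmox1 (81.2) and Txnrd1 (79.4) overlapped at the top, Nqo1 (52.6) had moved up to overlap Gsr (52.1), and Slc7a11 (2.11) was last. In control DKO MEFs Txnrd1 (109) stood alone at the top, Hmox1 (59.6) overlapped Gsr (58.2), Nqo1 (11.3) had dropped to place 8, and Gclm (7.18) overlapped Slc7a11 (6.96). In treated DKO MEFs Txnrd1 (92.0) overlapped Hmox1 (79.3), and Gclc (19.9) overlapped Nqo1 (18.5) per kilobase, while Slc7a11 (5.95) was again last. Nfe2l2 held place 4 in every group but treated Null MEFs, where it was at place 6 with 34.1 CPM per kilobase.

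Patterns over the 12 libraries were compared by Pearson's r of log2 CPM, as a description only, since the libraries fall into 4 groups and share 4 means. Of 9353 genes compared, the nearest was Zbtb1 for Nfe2l2 (r = 0.989), Cenpv for Keap1 (0.983), Celf4 for Nqo1 (0.996), Taf9 for Hmox1 (0.921) and Hax1 for Gclc (0.992). It was Pip4k2b for Gclm (0.976), Lhx9 for Txnrd1 (0.994), Ak3 for Srxn1 (0.994), Nf2 for Slc7a11 (0.996) and Fam107b for Gsr (0.987). Within the pathway the closest pair was Nqo1 and Gclm (0.897), followed by Nqo1 and Srxn1 (0.825), and the pair farthest apart was Nqo1 and Slc7a11 (-0.920). For each of the 10 genes the nearest gene overall lay outside the pathway. It was sought among all 9353 genes, so this says nothing about likeness within the pathway.

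The partners and regulators of NRF2 were read from a list of 16 genes, all of them tested. Percentages in brackets are the shares of all tested genes called in that direction. With etoposide in Null MEFs 12 were called lower (37.2%) and 2 higher (42.3%), with a median log2 fold change of -0.68 beside 0.07 for all tested genes. In DKO MEFs 9 were called lower (31.5%) and 3 higher (43.7%), with a median of -0.20 beside 0.14, but with library size alone the split was 5 and 5 and the median 0.07. The interaction was called above 0 for 13 (29.6%) and below 0 for 1 (24.4%), with a median of 0.36 beside 0.05. Without etoposide 5 were called higher (33.3%; 3 with library size alone) and 9 lower (33.4%) in DKO than in Null MEFs, with a median of -0.22 beside -0.02. After it 8 were called higher (37.5%) and 6 lower (36.6%), or 6 and 7 with DESeq2's size factors, with a median of 0.13 beside -0.00.

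Mafk, whose small MAF protein pairs with NRF2, was the regulator whose interaction was called below 0. It had 87.5, 82.4 and 85.1 CPM in control Null libraries and 201, 201 and 209 in treated ones, then 124, 124 and 119 in control DKO libraries and 104, 98.4 and 106 in treated ones. Treated Null libraries thus stood apart above all others. The rise in Null MEFs was 1.26 (SE 0.04, adjusted p 2.76e-15, same edgeR test), beside -0.25 in DKO MEFs (SE 0.04, adjusted p 1.11e-05, same edgeR test), or 0.02 with library size alone. The interaction was -1.51 (SE 0.05, adjusted p 3.23e-13, same edgeR test). Exons of Mafk overlap Tmem184a, as those of Mafg overlap Sirt7. Of the other small MAF genes, Maff had log2 fold changes of 0.15 in Null MEFs (0.10 without Null control replicate 3, 0.24 with the stricter filter and 0.32 with library size alone) and 0.37 in DKO MEFs (0.65 with library size alone), and Mafg of -0.52 and -0.18 (0.09 in DKO MEFs with library size alone).

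Sqstm1 encodes p62, which can take KEAP1 to autophagy, and is itself a target of NRF2 and of TFEB. Null libraries had 547, 534 and 530.5 CPM without etoposide and 419, 411 and 429.6 with it. DKO libraries had 669.8, 674 and 654 CPM without etoposide and 922, 904.5 and 894 with it. The DKO libraries were all above the Null ones, and etoposide moved the genotypes in opposite directions. The log2 fold change with etoposide was -0.35 in Null MEFs (SE 0.03, adjusted p 6.33e-09, same edgeR test) and 0.44 in DKO MEFs (SE 0.03, adjusted p 3.89e-10, same edgeR test), with an interaction of 0.80 (SE 0.04, adjusted p 5.95e-11, same edgeR test). Exons of Sqstm1 overlap Mrnip.

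Nfe2l1, for the related factor NRF1, went from a mean of 530.5 to 273 CPM in Null MEFs (log2 fold change -0.96) and from 532 to 433 in DKO MEFs (-0.30, or -0.02 and short of the threshold with library size alone), with an interaction of 0.66. Bach1, for a repressor that competes with NRF2, went from 89.7 to 59.4 CPM (-0.59) and from 77.6 to 58.0 (-0.42). Its interaction of 0.17 was past the threshold, and 0.11 and short of it with DESeq2 or its size factors. Bach2, whose exons overlap Bach2os, had 15.0 CPM in control Null MEFs and 3.71 after etoposide (-2.01), against 0.991 and 1.01 in DKO MEFs, a genotype difference of -3.93 without etoposide. Nfe2l3, for NRF3, was not called with etoposide. It had means of 2.16 and 2.28 CPM in Null MEFs and was lower in DKO MEFs by log2 fold changes of -1.78 without and -1.86 after etoposide.

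Cul3, for the scaffold of KEAP1's ligase, changed by -0.91 in Null and -0.60 in DKO MEFs, while its partner Rbx1 had -0.08 in Null MEFs, not called and 0.08 with library size alone, and 0.16 in DKO MEFs, a call lost without DKO control replicate 2 (0.12) or DKO etoposide replicate 3 (0.10). Of the genes for the other route, Fbxw11 changed by -1.52 and -1.11 and Gsk3b by -1.11 and -0.93. Btrc, which overlaps Gm6807, changed by -0.88 in Null MEFs and by -0.21 in DKO MEFs (0.06 with library size alone). Syvn1, for a further ligase and overlapping Mrpl49, changed by -0.28 in Null MEFs (-0.11 and not called with library size alone) and had 0.11 in DKO MEFs, not called (0.38 and called with library size alone). The coactivator genes Crebbp and Ep300, the latter overlapping Gm23880, changed by -1.37 and -0.76 in Null MEFs. In DKO MEFs Crebbp changed by -0.67 and Ep300 had -0.11, not called (0.17 and called with library size alone), and the interactions of 0.70 and 0.65 were past the threshold.

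**Figure D3:**
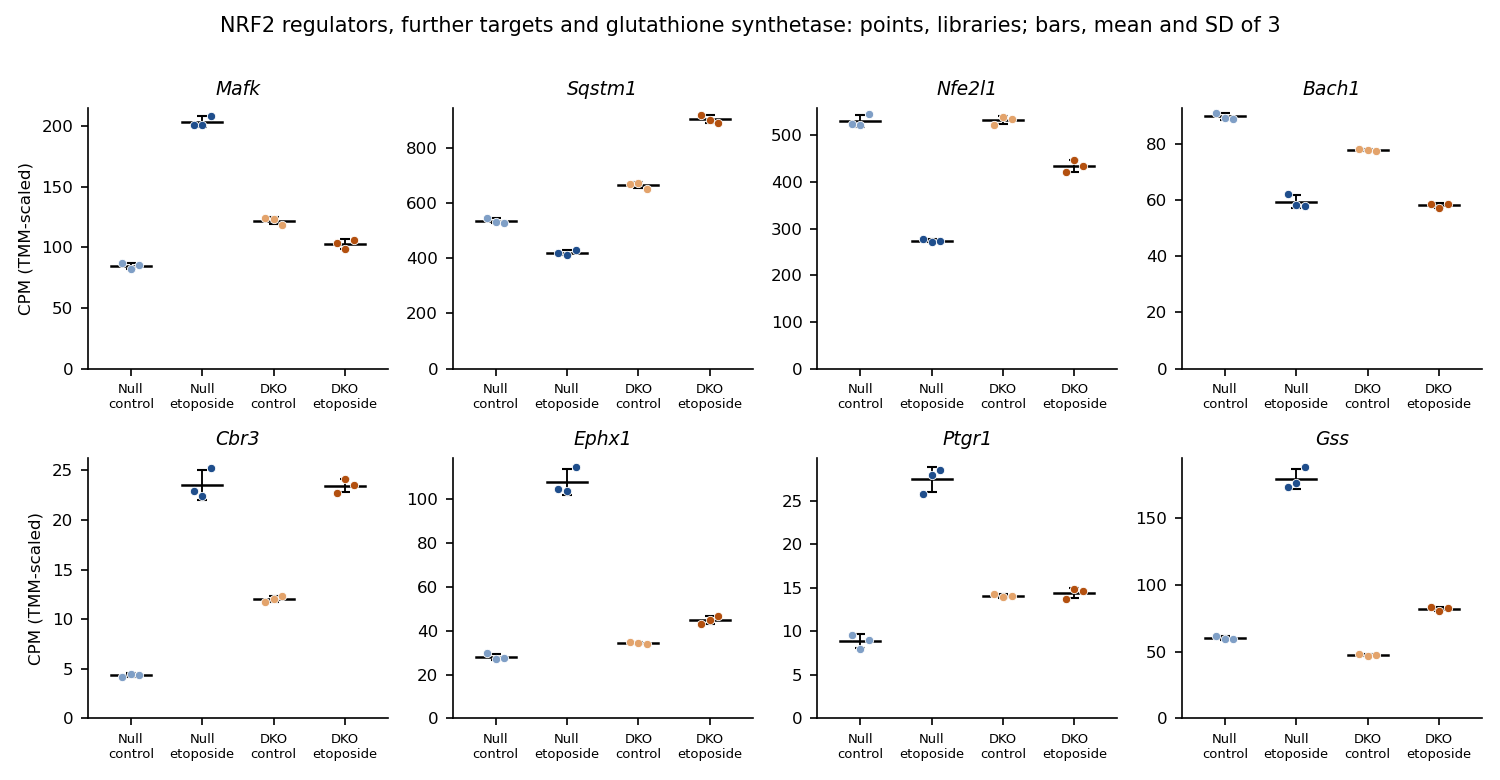
Level in CPM of 4 NRF2 regulators, 3 further targets and glutathione synthetase (Gss) in the 12 libraries; points are libraries and bars the mean and SD of 3. Mafk stands at 201 to 209 in treated Null libraries and at 124 or less elsewhere, and Sqstm1 at 894 to 922 in treated DKO libraries and at 674 or less elsewhere.

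Further NRF2 targets came from a list of 33 genes, of which 27 were tested. With etoposide in Null MEFs 16 were called higher (42.3% of all tested genes) and 5 lower (37.2%; 3 with library size alone or the stricter filter), at a median of 0.15 beside 0.07. In DKO MEFs 14 were called higher (43.7%) and 8 lower (31.5%; 4 with library size alone), at a median of 0.16 beside 0.14. Between genotypes more of the list was lower than higher. In DKO against Null MEFs without etoposide 9 were called higher (33.3%) and 18 lower (33.4%), at a median of -0.38 beside -0.02, and after it 3 higher (37.5%) and 20 lower (36.6%), at a median of -0.52 beside -0.00. With library size alone these were 8 and 18, and 3 and 21. The interaction was called above 0 for 2 (29.6%) and below 0 for 10 (24.4%), at a median of -0.12 beside 0.05, or for 6 and 7 with library size alone. The count above 0 was 1 with DESeq2, its size factors or the stricter filter and when any of 5 of the 12 libraries was left out, and 1 to 3 over all left-out libraries.

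Among further targets at 10 CPM or more, the same 3 had the largest responses in Null MEFs and the largest interactions. Cbr3, a carbonyl reductase gene, went from a mean of 4.33 to 23.5 CPM in Null MEFs and from 12.05 to 23.5 in DKO MEFs, so the genotypes differed before etoposide and met after it. Its log2 fold changes with etoposide were 2.44 in Null and 0.96 in DKO MEFs, and its interaction was -1.48 (SE 0.09, adjusted p 5.53e-10, same edgeR test). Ephx1, for an epoxide hydrolase and overlapping Gm36961, went from 28.1 to 108 CPM in Null MEFs (1.94) and from 34.4 to 44.9 in DKO MEFs, with an interaction of -1.55 (SE 0.07, adjusted p 7.66e-12, same edgeR test). Ptgr1, for prostaglandin reductase 1, went from 8.85 to 27.5 CPM in Null MEFs (1.63) and from 14.1 to 14.4 in DKO MEFs, with an interaction of -1.59 (SE 0.09, adjusted p 2.63e-10, same edgeR test). In DKO MEFs the log2 fold change of Ptgr1 was 0.04 and not called, or 0.31 and called with library size alone.

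In DKO MEFs the largest changes with etoposide among these targets at 10 CPM or more were Me1 (log2 fold change -1.08), which overlaps A330041J22Rik, Cbr3 (0.96) and Abcc1 (-0.91). Between genotypes without etoposide they were Cbr3 (1.48), Blvrb (-1.16) and Gstm1 (-0.85). After etoposide they were Ephx1 (-1.26), Gstm1 (-1.15) and the ferritin gene Fth1 (-0.99). Reads of the Gstm family and of Fth1 can align to paralogs or pseudogenes, and reads without a unique alignment were not counted.

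Antioxidant enzymes not defined by NRF2 formed a list of 23 genes, all tested. With etoposide in Null MEFs 13 were called higher (42.3% of all tested genes) and 5 lower (37.2%; 3 with limma or the stricter filter and 2 with library size alone), at a median of 0.14 beside 0.07. In DKO MEFs 7 were called higher (43.7%) and 7 lower (31.5%), at a median of 0.03 beside 0.14, or 15 and 2 with library size alone. In DKO against Null MEFs 9 were called higher (33.3%) and 9 lower (33.4%) without etoposide, and 6 higher (37.5%) and 11 lower (36.6%) after it. The interaction was called above 0 for 3 (29.6%) and below 0 for 8 (24.4%), or for 6 and 6 with library size alone. Gss, for the enzyme that finishes glutathione, overlaps Acss2 on the opposite strand and had 61.5, 59.0 and 59.5 CPM in control Null libraries and 174, 176 and 188 in treated ones. In DKO MEFs it had 47.9, 46.5 and 47.5 in control libraries and 83.4, 80.3 and 82.3 in treated ones, so it rose in both genotypes without overlap. The log2 fold changes were 1.58 and 0.79 and the interaction -0.78 (SE 0.05, adjusted p 1.38e-09, same edgeR test). The genes of glutathione synthesis thus differed among themselves in Null MEFs: the uptake gene Slc7a11 fell and Gss rose. Gclc had -0.07 (0.10 with library size alone), and Gclm had 0.11, a call that depended on single libraries.

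Among the other genes of this list, etoposide moved Txnrd3 by -0.61 and Glrx3 by 0.56 in Null MEFs, and Glrx by -0.70 and Prdx3 by 0.59 in DKO MEFs. DKO against Null MEFs gave 1.03 for Glrx, 0.89 for Prdx4 and -0.68 for Txn2 without etoposide, and -1.13 for Gss, 0.77 for Prdx4 and -0.63 for Gpx8 after it. The interactions of Glrx and Txnrd3 were -1.15 and 1.05.

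ATF4 drives amino acid supply and shares Slc7a11 with NRF2, so a list of Atf4 and 9 of its known targets was set beside it. With etoposide in Null MEFs 9 were called lower (37.2% of all tested genes) and 1 higher (42.3%), at a median of -1.08 beside 0.07. In DKO MEFs 6 were called lower (31.5%) and 4 higher (43.7%), at a median of -0.42 beside 0.14. In DKO against Null MEFs without etoposide 9 were called lower (33.4%) and 1 higher (33.3%), at a median of -0.34 beside -0.02. The count higher was 0 with library size alone and when Null control replicate 3 or DKO control replicate 1 was left out. After etoposide 8 were called higher (37.5%) and 1 lower (36.6%), at a median of 0.27 beside -0.00. The interaction was called above 0 for 9 (29.6%) and below 0 for none (24.4%), at a median of 0.73 beside 0.05, and the count called below 0 was 0 under each of the 20 alternatives, DESeq2 and limma among them. Chac1 (-2.63 in Null and -2.21 in DKO MEFs), Ddit3 (-1.73 and -1.61) and Trib3 (-2.54 and -1.33) fell in both genotypes. Ddit3 has 2 gene identifiers in the annotation.

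Cth, for the enzyme that makes cysteine from cystathionine, was the gene of the list called higher in Null MEFs. It went from a mean of 21.7 to 56.9 CPM in Null MEFs and from 11.9 to 57.3 in DKO MEFs, log2 fold changes of 1.39 and 2.27. Its genotype difference without etoposide was -0.87. Psat1 and Asns, for serine and asparagine synthesis, were lower in DKO MEFs without etoposide by log2 fold changes of -0.71 and -0.67 and had interactions of 1.07 and 1.01. Trib3 (0.89), Slc7a5 (0.65) and Psat1 (0.35) were higher in DKO than in Null MEFs after etoposide, as Slc7a11 was, and Trib3 had an interaction of 1.21. Without etoposide Slc7a11 was at 0.14, a call lost under several alternatives, beside a median of -0.34 for this list. With library size alone these were 0.02 and -0.46. Ddit3, at 0.12 (-0.00 with library size alone), was the gene of the list called higher there. Whether ATF4, NRF2, TFEB or TFE3 acted on Slc7a11 was not tested.

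**Figure D4:**
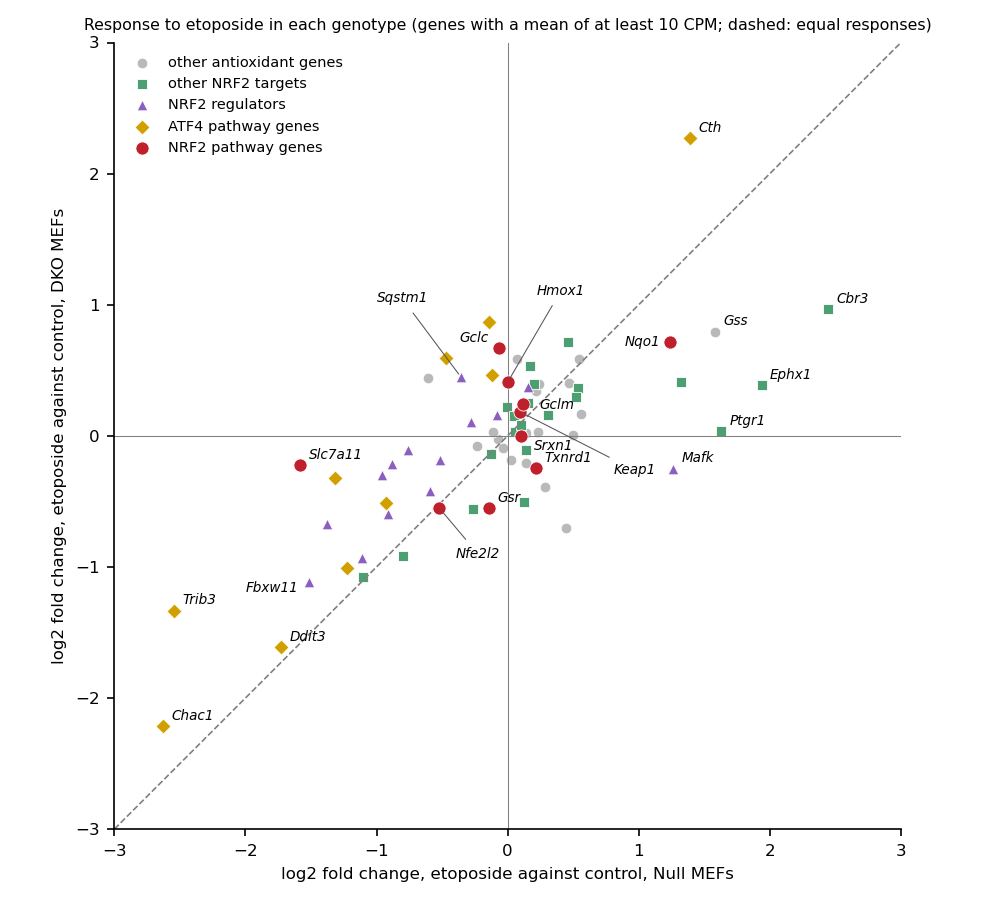
Log2 fold change with etoposide in Null MEFs (horizontal) and in DKO MEFs (vertical) for listed genes averaging 10 CPM or more, 3 libraries a group; genes on the dashed line responded alike. Slc7a11 (-1.58 and -0.23, the latter 0.05 with library size alone) lies above the line with most ATF4 genes, and Nqo1 (1.24 and 0.71) below it with Cbr3, Ephx1 and Ptgr1.

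**Figure D5:**
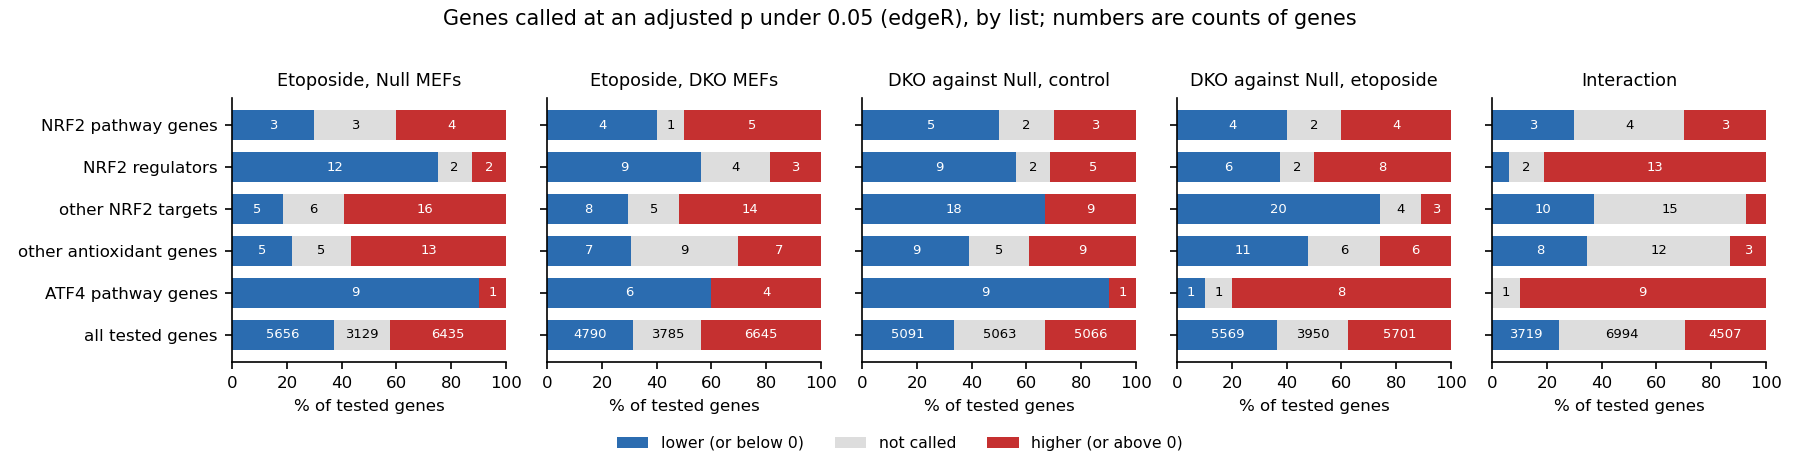
Share of tested genes called lower, not called or called higher (below or above 0 for the interaction) at an adjusted p under 0.05 in edgeR, for each list and for all 15220 tested genes, with the number of genes in each bar. The 10 NRF2 pathway genes split both ways in each comparison, while 20 of 27 further targets are lower in DKO than in Null MEFs after etoposide (21 with library size alone).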

How the data were processed

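Per the authors' methods, RNA was sequenced from stranded, ribosomal RNA-depleted libraries and reads were aligned with HISAT2 and counted per gene with HTSeq, and the labels list HISAT2 and mm10 but featureCounts for the counting. The deposited counts were used as they are, 0 columns were left out, and the strand setting is not stated. The labels name 2 RNA kits without saying which library used which. The table's 5 summary lines stayed out of library sizes and tests: genes held 53.4% to 63.1% of the reads, no feature 20.2% to 27.3%, alignments that were not unique 15.9% to 20.5% and ambiguous ones 0.428% to 0.513%. These shares move with the groups. No feature held 22.5% to 24.2% in control Null and 25.1% to 27.3% in etoposide Null libraries, and 20.2% to 21.1% and 21.2% to 22.3% in DKO ones. Rn45s, a ribosomal RNA gene kept in the table, held 2.2% to 2.89% of the gene counts in control Null and 3.81% to 4.38% in etoposide Null libraries, and 1.66% to 1.95% and 2.98% to 3.58% in DKO ones. Their part in the results was not tested.

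Genes were filtered with filterByExpr, scaled with TMM and tested in 1 fit of the 4 groups with the quasi-likelihood method of edgeR 4.0.16 in R 4.3.3, with Benjamini-Hochberg adjustment over all 15220 tested genes. Alternatives used DESeq2 1.42.0 and limma 3.58.1. The scripts were tested on simulated data. The replicate number was not a block, since no label says that it marks a shared culture. Deviations of same-numbered libraries from their group means correlated at -0.032 to 0.0429 in 12 pairs. Positions and lengths came from GENCODE M21 and promoters from RefSeq, both on GRCm38.

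Members and lists were chosen with earlier results of these data known. Named are the 10 members, Tfeb, Tfe3, each tested regulator, and of the other lists, in each comparison, the 3 genes with the largest log2 fold change among those called, with a mean of 10 CPM or more and no overlap of replicates. Nearest genes are those with the highest r at 10 CPM or more, and marker genes the most abundant and those at or below 3 counts. The legacy quasi-likelihood fit and the extension of the alternatives to the other lists were chosen after seeing the data.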

Additional observations from a re-analysis of the deposited data

Results flagged for a closer look

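The response to etoposide differed between Null and DKO MEFs for 6 of the 10 genes, near the 54% of all tested genes for which it did. As a log2 difference of the responses, DKO minus Null, it was -0.53 for Nqo1, 0.41 for Hmox1, 0.74 for Gclc, -0.46 for Txnrd1, 1.36 for Slc7a11 and -0.42 for Gsr.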

How the results depend on the processing

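Of 800 alternative log2 fold changes of the 10 genes, 721 kept direction and call, 21 lost the call, 17 gained it and 41 turned sign. For Hmox1 with etoposide in Null MEFs the turned values were 0.0456 with DESeq2, 0.0449 with its size factors, 0.167 with library size alone, 0.085 with the stricter filter, 0.000266 with a replicate block and 0.00562 with 6 libraries, and -0.0771 to 0.0315 leaving out 1 library. For Srxn1 with etoposide in DKO MEFs they were -0.017 with DESeq2, -0.0174 with its factors, -0.000475 with limma, -0.000156 with the block, -3.135e-05 with the legacy fit, -0.0392 with no filter, -0.02945 with 6 libraries, and -0.0572 to 0.0168 leaving out 1 library. With library size alone etoposide gave 0.101 for Gclc and 0.029 for Gsr in Null MEFs (Gclc 0.019 with the stricter filter), and in DKO MEFs 0.0476 for Slc7a11, 0.028 for Txnrd1, 0.0597 for Btrc, 0.0894 for Mafg and 0.0239 for Mafk. Between genotypes without etoposide Nfe2l2 was 0.00336 with DESeq2, 0.00334 with its factors, 0.000291 with the legacy fit and -0.0524 to 0.0331 leaving out 1 library, and Gsr was -0.1004 with library size alone and -0.00322 to 0.0513 leaving out 1. After etoposide Hmox1 ran from -0.168 to 0.0348 leaving out 1. Interactions with library size alone were 0.0801 for Nfe2l2 (-0.0723 to 0.0314 leaving out 1) and 0.00145 for Srxn1. Members called higher with etoposide in Null MEFs were 2 with no filter, 6 with library size alone and 2 to 4 leaving out 1 library. With library size alone 2 members were lower with etoposide in DKO MEFs, 1 was higher between genotypes without etoposide and 5 had interactions above 0. All genes then split, higher and lower, 7806 and 4396 (6435 and 5656 with TMM) with etoposide in Null MEFs, 9316 and 3004 (6645 and 4790) in DKO MEFs, 3977 and 6393 (5066 and 5091) between genotypes without etoposide, and 5734 and 3055 (4507 and 3719) for the interaction. Library size alone also left 3 further targets and 2 other antioxidant genes lower with etoposide in Null MEFs (5 and 5 with TMM), 4 further targets lower in DKO MEFs (8), and 3 regulators higher between genotypes without etoposide (5). With a replicate block 12111 and 11416 genes were called with etoposide in Null and DKO MEFs. Counts per gene show neither NRF2 protein nor its binding, 1 line per genotype and 1 time limit what a difference means, and the cause was not tested.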
